A study of Homo sapiens with 6 samples.

Results

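The mRNA levels of 41 genes for the synthesis, storage and oxidation of fatty acids were examined in luciferases-expressing HepG2 cells, a human hepatoblastoma line, after exposure to sedanolide, a phthalide found in celery. The genes form a given list of symbols that follows a fatty acid from its synthesis to its breakdown, and all 41 were found among the 61541 genes of the deposited counts. RNA-seq was performed on 3 libraries of sedanolide-treated cells (100 µM, 24 h) and 3 libraries of control cells. Both groups carry the same integrated reporters, the luciferase SLR3 behind antioxidant response elements and a thymidine kinase promoter, and the luciferase ELuc behind the thymidine kinase promoter alone. Whether the control cells received DMSO, in which sedanolide was dissolved, is not given in the sources used here. Nothing in the labels says that the libraries of a group came from separate cultures, so p-values measure only the spread between these libraries, which may be technical.

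Liver cells build palmitate from citrate by way of ATP citrate lyase, acetyl-CoA carboxylase and fatty acid synthase, and desaturases and elongases then modify the chain. Fatty acids are activated to acyl-CoA, which is either esterified to triglyceride and kept in lipid droplets or carried into mitochondria on carnitine for beta-oxidation, with a separate route in peroxisomes. The liver fatty acid-binding protein carries fatty acids through the cytosol, and the transcription factors SREBP-1c and PPARα are known regulators of the synthetic and the oxidative genes of the liver.

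Of these genes, FABP1, which encodes the liver fatty acid-binding protein, fell in sedanolide-treated cells, to a level 2.60-fold below control, and no other member passed the test. The genes of fatty acid synthesis, desaturation and elongation gave no call, and neither did those of mitochondrial beta-oxidation. Of all genes tested 0.667% were called. At an unadjusted p under 0.05, 7 members were lower and 1 member, the triglyceride-forming enzyme DGAT1, was higher. The lower members were spread over fatty acid binding, triglyceride assembly and breakdown, lipid droplets, carnitine entry, peroxisomal oxidation and ketone body metabolism. A call required a Benjamini-Hochberg FDR of 0.05 in the edgeR quasi-likelihood test over 14102 genes and a fold change of 1.5. Of the 41 members 40 had enough counts to be tested. THRSP, a nuclear protein linked to lipogenesis, had 0 to 4 counts per library and was not tested.

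**Figure D1:**
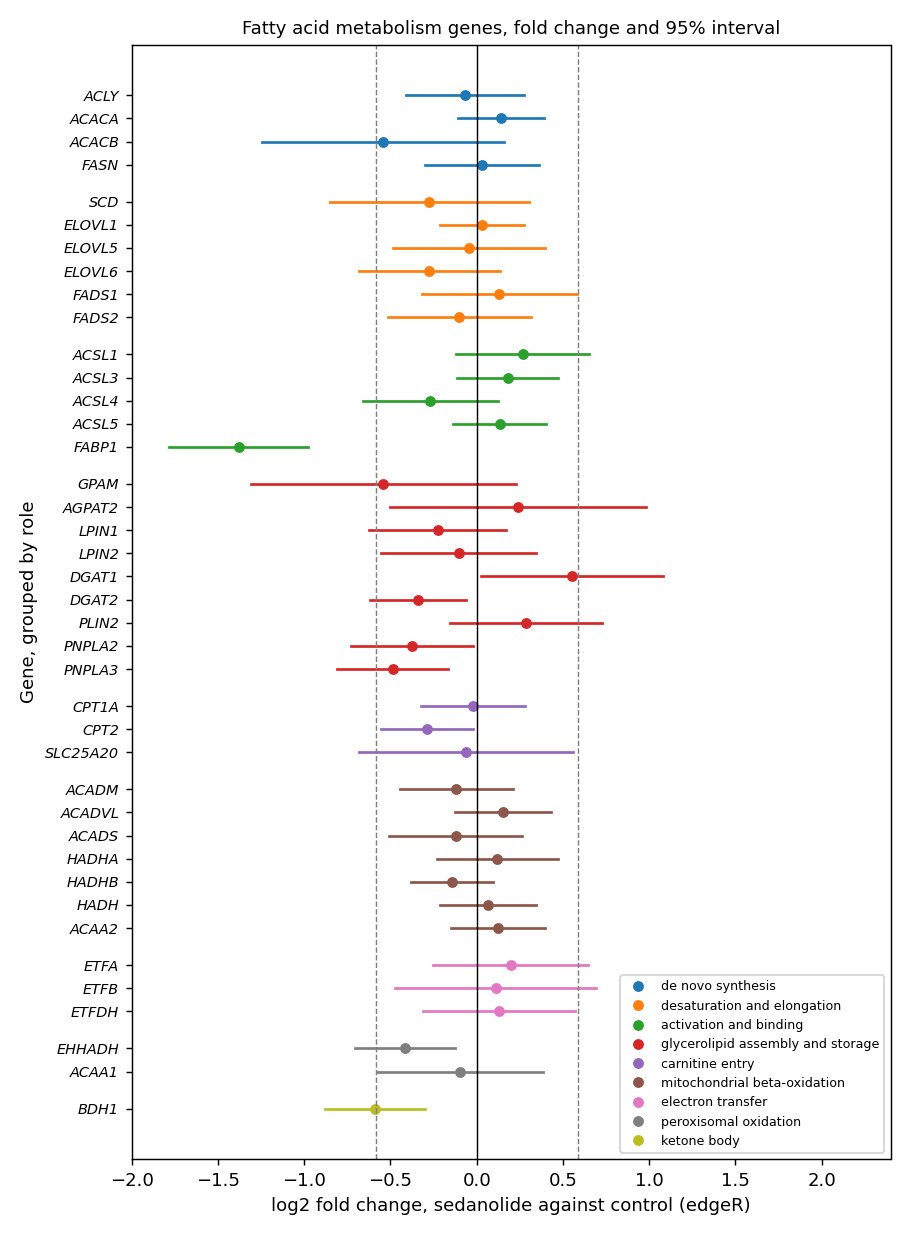
Log2 fold change (x axis, sedanolide against control) of the 40 tested genes (y axis, grouped and colored by role), with points for the edgeR estimate, bars for its 95% interval (n = 3 libraries per group) and dashed lines at a fold change of 1.5 either way. FABP1 lies farthest from 0, at -1.38, and the other 39 genes lie between -0.59 and 0.55.

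The 1 called member of 40 tested stands against 0.667% of all genes tested (94 genes) and, among lower genes, 0.312% (44 genes). At an unadjusted p under 0.05, the 8 members make up 20.0%, against 11.9% of all genes. The 7 lower members make up 17.5%, against 6.57%, and there was 1 higher member, against 5.34%. The values of the groups did not overlap for 9 members, or 22.5%, against 18.3% of all genes. Of these 1 was higher and 8 were lower, against 8.69% and 9.65% of all genes. The median log2 fold change of the 40 tested members was -0.06, compared with 0.01 for all genes. For 21 members (52.5%) the 95% interval lay within a fold change of 1.5 in both directions, which held for 39.4% of all genes.

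The libraries held 16420258 to 26714853 expected counts, of which the members took 0.753% to 0.871%. The first principal component of all genes separated control 1, control 2 and sedanolide 3 from control 3, sedanolide 1 and sedanolide 2, and so did not follow the treatment. The share of counts from mitochondrial genes differed along the same line, at 1.43% to 2.15% on the side of control 1 and 4.23% to 5.22% on the side of control 3. Each side holds libraries of both groups, so the sedanolide difference could also be taken within a side and is given for the members to which it matters. Such a difference rests on sedanolide 3 alone on the side of control 1, and on control 3 alone on its own side. A fit in which the side was a term called 2.69% of all genes. As the side was read from these same libraries, the p-values of that fit are descriptive only. The hepatocyte genes ALB, APOB, SERPINA1 and HNF4A were present in all libraries, with at least 4687 counts each. Among markers of other cell types, the fibroblast gene COL1A2 had 0 counts in all 6 libraries. EPCAM (1161 to 2254 counts), PDGFRB (96 to 563), CD68 (200 to 380) and PECAM1 (71 to 137) were present in all libraries.

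The first group of members makes palmitate. ACLY, which cleaves citrate to acetyl-CoA, differed by a log2 fold change of -0.07 (SE 0.146). ACACA, the cytosolic acetyl-CoA carboxylase, measured 208, 203 and 209 normalized CPM in controls 1, 2 and 3 and 218, 243 and 223 in the sedanolide libraries 1, 2 and 3. Its groups did not overlap, but the log2 fold change was 0.14 (95% interval -0.11 to 0.39) and the unadjusted p 0.225. FASN, the fatty acid synthase and the highest of this group per transcript length, measured 1292, 945 and 1072 CPM in control and 1147, 1116 and 1114 in sedanolide-treated cells. The sedanolide libraries lay inside the range of the controls, with a log2 fold change of 0.03 (95% interval -0.30 to 0.36) whose sign turned in 5 of 15 alternative settings. ACACB, the carboxylase at the mitochondrial surface whose product malonyl-CoA restrains fatty acid import, measured 18.4, 17.8 and 10.6 CPM in control and 7.74, 9.69 and 14.7 in sedanolide-treated cells. The low control library and the high sedanolide library were those on the opposite side of component 1 from the rest of their group. The log2 fold change of ACACB was -0.54 (95% interval -1.24 to 0.16), and it was -0.30 and -0.29 within the sides and 0.07 in the authors' log2(TPM + 1) table.

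The desaturases and elongases gave no value at an unadjusted p under 0.05 among 6 genes, against 11.9% of all genes. SCD, which forms oleate and is the highest of them, measured 2223, 2464 and 1577 CPM in control and 1275, 1709 and 2195 in sedanolide-treated cells. The groups overlapped, with a log2 fold change of -0.27 (95% interval -0.85 to 0.30), and within the sides the difference was -0.09 and -0.10. ELOVL6, which extends palmitate to stearate, gave -0.28, and ELOVL5, an elongase of polyunsaturated fatty acids, gave -0.05. ELOVL1, an elongase of very long chains, differed least of these 6 from one library to another, at 27.6 to 29.9 CPM. The neighboring genes FADS1 and FADS2, the delta-5 and delta-6 desaturases, gave 0.13 and -0.10. These 2 genes overlap by 490 exonic bases on opposite strands, and the strand setting of the counting is not given in the sources used here.

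FABP1 (ENSG00000163586; GRCh38, chr2:88122982-88128062, minus strand) measured 139, 140 and 106 CPM in the control libraries and 48.4, 42.2 and 57.1 CPM in the sedanolide libraries, in the order of their numbers. The highest sedanolide library stood well below the lowest control library. The means were 128 ± 19.3 and 49.2 ± 7.50 CPM (SD, n = 3), and the log2 fold change was -1.38 (SE 0.170, 95% interval 1.97-fold to 3.44-fold lower), with an adjusted p of 0.0265 in edgeR. Per transcript length it went from 631 ± 129 to 226 ± 53.9 TPM (SD, n = 3), which placed it second among the members in control cells, after ETFB, and sixth in sedanolide-treated cells. Its control level and those of SCD (591 ± 168 TPM) and PLIN2 (547 ± 39.4 TPM) differed by less than 1 SD of FABP1. Within the sides the log2 difference was -1.29 and -1.23, and with the side as a term it was -1.26 (adjusted p = 0.000217 in edgeR).

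The size of the FABP1 difference was stable over 15 alternative settings, from -1.502 to -1.257, with an unadjusted p under 0.05 in all 15, whereas the adjusted p ranged from 1.08e-09 to 0.463 and stayed under 0.05 in 7. In edgeR it was 0.198 without control 1, 0.131 without control 2, 0.118 without sedanolide 1 and 0.211 without sedanolide 2, and limma on log2(TPM + 1) gave 0.0542. Hepatocyte markers moved in the same direction by a smaller amount, and none was called, against 0.667% of all genes. Of the 10 markers 9 were fitted lower, with a median of -0.33, and with the side as a term the median was -0.24. The median of all genes was 0.01 in both fits. The markers lower at an unadjusted p under 0.05 numbered 3 (30%, against 6.57% of all genes). These were ALB (-0.43), TTR (-0.53) and FGB (-0.45). The summed CPM of the 10 markers ranged from 29952 to 45980 in control and 22138 to 38940 in sedanolide-treated cells. This sum also differed between the sides. It was 39794, 45980 and 38940 in control 1, control 2 and sedanolide 3. In control 3, sedanolide 1 and sedanolide 2 it was 29952, 22138 and 28419. Among 7 markers of other cell types, COL1A2 had 0 counts, PTPRC and KRT7 had 0 to 3 and 0 to 7 counts, and of the 4 tested only PDGFRB had an unadjusted p under 0.05, at -1.42 (adjusted p = 0.155 in edgeR). PDGFRB passed both thresholds in DESeq2, at -1.42 (adjusted p = 0.00420), and in the edgeR fit with the side term, at -1.19 (adjusted p = 0.00208). The summed CPM of these 4 ranged from 107 to 118 in control and 95.9 to 113 in sedanolide-treated cells. The part of these markers in the FABP1 result was not tested, and in bulk RNA fewer expressing cells and less RNA per cell cannot be told apart.

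**Figure D2:**
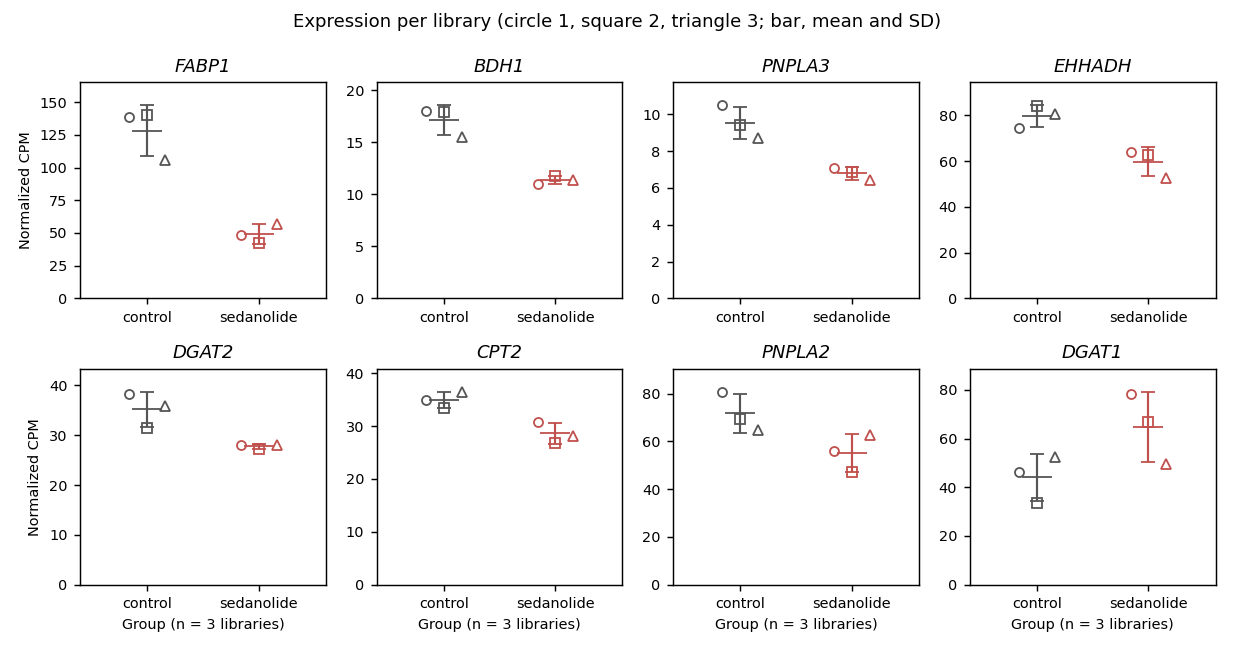
Normalized CPM (y axis, from 0) by group (x axis) of the 8 members with an unadjusted p under 0.05, with an open symbol per library (circle, square and triangle for replicates 1, 2 and 3) and bars for the mean and SD (n = 3). The groups are apart for all but DGAT1, and the gap is widest for FABP1.

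The promoter of FABP1 is shown because it is the member that was called, and that of BDH1 because it had the next smallest p. PNPLA2 is shown because it alone had a match to any of the 4 motifs first searched. This holds among the lower members with a window and an unadjusted p under 0.05. Each is the 250 bases before the start, 5′ to 3′ on the strand of the gene, from RefSeq (GRCh38.p14), with a motif match in capitals. FABP1 lies at chr2:88128063-88128312 (minus strand), BDH1 at chr3:197555969-197556218 (minus strand), at one of 2 starts listed, and PNPLA2 at chr11:818664-818913 (plus strand).
FABP1: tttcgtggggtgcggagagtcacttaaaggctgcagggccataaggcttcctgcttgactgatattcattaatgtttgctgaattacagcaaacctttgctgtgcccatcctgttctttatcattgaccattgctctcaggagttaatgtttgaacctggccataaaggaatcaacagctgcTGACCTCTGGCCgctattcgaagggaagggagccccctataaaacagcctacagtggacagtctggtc
BDH1: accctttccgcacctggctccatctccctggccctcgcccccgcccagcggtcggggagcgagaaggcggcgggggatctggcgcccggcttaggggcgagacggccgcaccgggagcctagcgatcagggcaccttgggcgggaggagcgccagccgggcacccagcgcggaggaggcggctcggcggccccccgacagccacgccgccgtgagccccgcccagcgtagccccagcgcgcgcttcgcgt
PNPLA2: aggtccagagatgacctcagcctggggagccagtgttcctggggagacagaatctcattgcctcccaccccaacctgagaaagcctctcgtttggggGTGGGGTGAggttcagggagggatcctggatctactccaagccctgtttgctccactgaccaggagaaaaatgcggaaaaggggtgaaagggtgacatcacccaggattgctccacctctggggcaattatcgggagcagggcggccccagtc

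Promoter windows were found for 34 of the 41 members, 51 windows in all, and were searched on both strands. The element of PPAR, a repeat of AGGNCA with 1 base between the copies, matched in 0 of 51 member windows and 0.268% of all 35116 windows. A variant without the first base and with AGGTCA as the second copy, written after the FABP1 sequence had been seen, matched in FABP1 alone among the members, 57 to 68 bases before the start, and in 0.145% of all windows. These are the capitals in FABP1, on its other strand. As the variant was spelled from this sequence, its match in FABP1 was fixed in advance and counts as no finding. The other motifs were not loosened in this way. The sterol regulatory element (TCACNCCAC) matched in PNPLA2, where it is in capitals, and in ACSL1, against 0.883% of all windows. The antioxidant response element (TGACNNNGC) matched in 5 member windows, those of ACSL1, ACSL5, ETFA, ETFB and LPIN1, against 10.9% of all windows. The HNF1 site, GTTAAT and ATT with 1 base between them, matched in no member window and in 0.296% of all. No capitals stand in BDH1, as none of these motifs matched there. A match describes letters only and shows no binding.

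The acyl-CoA synthetases, which activate fatty acids, gave differences in both directions and no unadjusted p under 0.05, against 11.9% of all genes. ACSL4, which prefers arachidonate, measured 606, 736 and 566 CPM in control and 441, 532 and 612 in sedanolide-treated cells, with overlapping groups and a log2 fold change of -0.27 (95% interval -0.66 to 0.12). ACSL1, the main synthetase of liver, measured 12.7, 10.3 and 11.9 CPM in control and 15.5, 14.9 and 11.5 in sedanolide-treated cells, with a log2 fold change of 0.27 (95% interval -0.12 to 0.65). Sedanolide 3 lay inside the control range for ACSL1, and the other two sedanolide libraries above it. ACSL3, which serves lipid droplets, and ACSL5, found in mitochondria and endoplasmic reticulum, gave 0.18 and 0.13.

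The 9 genes grouped as triglyceride assembly and storage, which include PNPLA2 and PNPLA3, held 4 of the 8 members with an unadjusted p under 0.05. None of the 9 was called, against 0.667% of all genes. The 4 make up 44.4% of these 9, against 11.9% of all genes. By direction, 33.3% were lower and 11.1% higher, against 6.57% and 5.34% of all genes. The lower genes were DGAT2, PNPLA2, which acts in triglyceride breakdown, and PNPLA3, whose reads are uncertain. The final step of triglyceride synthesis is carried out by 2 unrelated enzymes, whose genes differed in opposite directions. DGAT1 measured 46.2, 33.6 and 52.6 CPM in control and 78.2, 66.7 and 49.4 in sedanolide-treated cells, and sedanolide 3 fell within the control range. Its log2 fold change was 0.55 (95% interval 0.02 to 1.08, unadjusted p = 0.0426, adjusted p = 0.393 in edgeR), and within the sides it was 0.33 and 0.46. DGAT1 shares 137 exonic bases with HSF1 on the other strand. DGAT2, the enzyme tied to newly made fatty acids, measured 38.3, 31.4 and 35.9 CPM in control and 28.0, 27.3 and 28.1 in sedanolide-treated cells. The sedanolide libraries lay close together and below all controls, with a log2 fold change of -0.34 (95% interval -0.62 to -0.06, adjusted p = 0.316 in edgeR).

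Both patatin-like phospholipase genes were lower in each sedanolide library than in any control library, without passing the adjusted test. PNPLA2, the lipase that starts triglyceride breakdown, measured 80.8, 69.4 and 65.0 CPM in control and 56.0, 47.0 and 62.7 in sedanolide-treated cells, a log2 fold change of -0.38 (95% interval -0.73 to -0.02, adjusted p = 0.385 in edgeR). PNPLA3, a lipid droplet protein known from fatty liver disease, measured 10.5, 9.40 and 8.70 CPM in control and 7.10, 6.87 and 6.42 in sedanolide-treated cells. Its log2 fold change was -0.49 (95% interval -0.81 to -0.17, adjusted p = 0.224 in edgeR), with an unadjusted p under 0.05 in 15 of 15 alternative settings. PNPLA3 shares 148 exonic bases with SAMM50 on the same strand, which had 1069% of its counts, so its own reads are uncertain.

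PLIN2, the main coat protein of lipid droplets in liver cells and the highest of this group, measured 572, 514 and 689 CPM in control and 870, 715 and 576 in sedanolide-treated cells. The groups overlapped, with a log2 fold change of 0.28 (95% interval -0.16 to 0.72) and 0.09 and 0.20 within the sides. GPAM, which performs the first acylation of glycerol phosphate in mitochondria, measured 87.8, 127 and 70.1 CPM in control and 43.4, 58.6 and 93.9 in sedanolide-treated cells. Here too the groups overlapped, and the interval was wide (log2 fold change -0.54, 95% interval -1.31 to 0.23). AGPAT2, LPIN1 and LPIN2, which act on the following steps toward diacylglycerol, gave 0.24, -0.23 and -0.11.

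Entry of fatty acids into mitochondria depends on the carnitine shuttle. CPT1A, its rate-controlling outer membrane enzyme, measured 71.7, 73.9 and 61.0 CPM in control and 61.7, 69.1 and 72.8 in sedanolide-treated cells, so that the groups overlapped almost fully (log2 fold change -0.02, 95% interval -0.32 to 0.28). CPT2, the inner membrane enzyme, measured 34.9, 33.4 and 36.5 CPM in control and 30.9, 26.8 and 28.1 in sedanolide-treated cells. All sedanolide libraries lay below all controls for CPT2, with a log2 fold change of -0.29 (95% interval -0.55 to -0.02, unadjusted p = 0.0369, adjusted p = 0.376 in edgeR). CPT2 shares 99 exonic bases with CZIB on the other strand. SLC25A20, the carrier between both enzymes, gave -0.06 with a wide interval of -0.68 to 0.56.

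For all 7 genes of mitochondrial beta-oxidation the 95% interval lay within a fold change of 1.5. HADHA, the alpha subunit of the trifunctional protein and the highest of them, measured 527, 454 and 559 CPM in control and 584, 619 and 469 in sedanolide-treated cells, with overlapping groups and a log2 fold change of 0.12 (95% interval -0.23 to 0.47). HADHB, the beta subunit of the same complex, measured 151, 151 and 149 CPM in control and 139, 139 and 132 in sedanolide-treated cells. Its groups did not overlap, but the difference was small, at -0.14 (95% interval -0.38 to 0.10). The acyl-CoA dehydrogenases ACADVL, ACADM and ACADS, for very long, medium and short chains, gave 0.15, -0.12 and -0.12. ACADM shares 157 exonic bases with RABGGTB on the same strand, which had 169% of its counts, so some of its reads are uncertain. HADH and ACAA2, which act on the later steps of the cycle, gave 0.07 and 0.13.

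The electron transfer flavoprotein takes electrons from these dehydrogenases to the respiratory chain. ETFB, its beta subunit and the member with the highest TPM in both groups, measured 445, 317 and 518 CPM in control and 572, 474 and 335 in sedanolide-treated cells. Control 2 and sedanolide 3 were the lowest libraries, and the log2 fold change of 0.11 (95% interval -0.47 to 0.69) became -0.16 and 0.01 within the sides. ETFA, the alpha subunit, and ETFDH, the oxidoreductase that receives the electrons, gave 0.20 and 0.13. ETFDH shares 1427 exonic bases with PPID, and the peroxisomal ACAA1 shares 1403 with DLEC1, in both cases on opposite strands.

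In peroxisomes, EHHADH, a bifunctional enzyme of beta-oxidation and of dicarboxylic acid breakdown, measured 74.7, 83.9 and 80.5 CPM in control and 63.9, 62.9 and 52.6 in sedanolide-treated cells. The groups did not overlap, and the log2 fold change was -0.41 (95% interval -0.70 to -0.12, unadjusted p = 0.0117, adjusted p = 0.253 in edgeR). With the side as a term EHHADH gave -0.47 (adjusted p = 0.0393 in edgeR, range over 15 alternatives 0.0393 to 0.919), below the fold change of 1.5. ACAA1, the peroxisomal thiolase and the higher of both genes by TPM, measured 111, 98.5 and 136 CPM in control and 125, 118 and 80.2 in sedanolide-treated cells, and its groups overlapped (log2 fold change -0.10, 95% interval -0.58 to 0.39).

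BDH1, which interconverts the ketone bodies acetoacetate and 3-hydroxybutyrate, came next to FABP1 in size of difference. It measured 17.99, 17.92 and 15.49 CPM in control and 10.97, 11.78 and 11.42 in sedanolide-treated cells, and all sedanolide libraries lay below all controls. The means were 17.1 ± 1.43 and 11.4 ± 0.41 CPM (SD, n = 3). The log2 fold change was -0.59 (SE 0.124, 95% interval -0.88 to -0.30), with an adjusted p of 0.124 in edgeR. BDH1 had an adjusted p of 0.00721 in DESeq2, which called it along with FABP1 and called 2.31% of all genes, 1.40% as lower. With the side as a term BDH1 had an adjusted p of 0.0316 in edgeR at -0.55, just below the fold change of 1.5, and over the 15 alternatives its adjusted p ranged from 0.00721 to 0.788.

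The synthetic and the oxidative members were then compared as groups. The 10 tested members of synthesis, desaturation and elongation had a median log2 fold change of -0.06 (range -0.54 to 0.14), and the 15 members of carnitine entry, beta-oxidation, electron transfer and peroxisomal oxidation had a median of -0.02 (range -0.41 to 0.20). The difference between the medians, -0.04, was smaller than the spread of the same difference among libraries of a group, with a pooled SD of 0.18. For single libraries the control mean of each gene was first subtracted from its log2 CPM, and the median of the synthesis genes less that of the oxidation genes was then 0.09, 0.11 and -0.17 in the controls, taken by number, and -0.25, -0.06 and 0.17 in the sedanolide libraries. The 3 positive values belong to the 3 libraries on the side of control 1, which include sedanolide 3, and the negative ones to the other side.

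**Figure D3:**
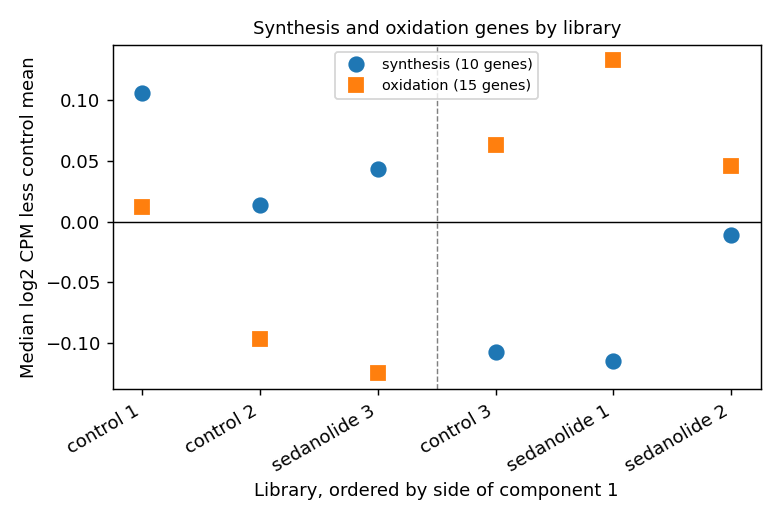
Median log2 CPM less the control mean (y axis) of the 10 synthesis genes (circles) and the 15 oxidation genes (squares) in each library (x axis), with a dashed line between the sides of component 1. Synthesis lies above oxidation in control 1, control 2 and sedanolide 3 and below it in control 3, sedanolide 1 and sedanolide 2.

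For 28 of the 40 tested members the difference between the sides was larger in size than the sedanolide difference fitted with the side as a term, compared with 66.2% of all genes. ACACB, GPAM, SLC25A20 and SCD were lower on the side of control 3, by log2 differences of -0.76, -0.75, -0.62 and -0.56. ETFB, ACAA1, AGPAT2, DGAT1 and ETFA were higher there, by 0.54, 0.49, 0.49, 0.48 and 0.45. Of the 7 genes of mitochondrial beta-oxidation 6 were higher there, from 0.03 for HADHB to 0.27 for HADHA, and ACADM was lower, at -0.16. The share of all genes that were higher there is not given here. The sides were read from these same libraries, so these values are a description without a test.

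**Figure D4:**
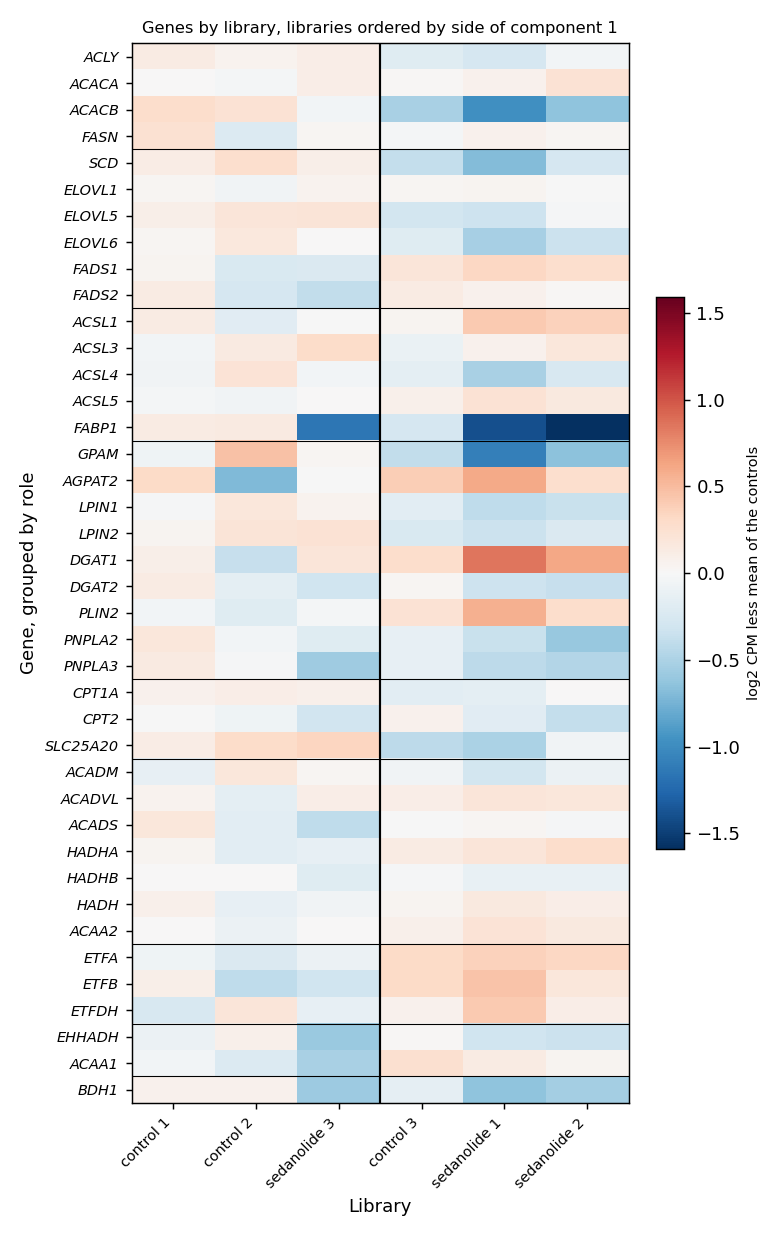
Log2 CPM less the mean of the controls (color) for the 40 tested genes (rows, grouped by role) in 6 libraries (columns, ordered by side of component 1, with the sides parted by a vertical line). FABP1 and BDH1 are lower in all 3 sedanolide libraries, while ACACB, GPAM and SCD differ mainly between the sides.

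In the fit with the side term, 11 of the tested members (27.5%) had an unadjusted p under 0.05, against 19.5% of all genes. The p-values of this fit rest on sides read from these same libraries. FABP1, BDH1 and EHHADH had an adjusted p under 0.05 in this edgeR fit, and FABP1 alone also passed the fold change of 1.5, against 1.62% of all genes called lower in this fit.

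The surrounding pathway was examined in 98 further genes, of which 83 were tested. None was called in the edgeR fit with the treatment as the only term, against 0.667% of all genes. At an unadjusted p under 0.05, 6 were higher (7.23%, against 5.34% of all genes) and 12 lower (14.5%, against 6.57%). DESeq2 called 4 of these genes, HACD1, GPAT3, PLIN4 and ACSS1, against 2.31% of all genes. The edgeR fit that includes the side also called 4, against 2.69% of all genes. These were HACD1 at 0.72 (adjusted p = 0.00826), PPARGC1B at 0.93 (adjusted p = 0.0104), PLIN4 at -0.87 (adjusted p = 0.0441) and ACSS1 at 0.59 (adjusted p = 0.0143). HACD1, a dehydratase of fatty acid elongation, measured 14.1, 13.2 and 14.8 CPM in control and 26.8, 25.7 and 20.9 in sedanolide-treated cells, a log2 fold change of 0.81 (adjusted p = 0.0657 in edgeR). ACSS1, the mitochondrial acetyl-CoA synthetase, measured 38.2, 33.0 and 35.8 CPM in control and 56.1, 57.1 and 50.9 in sedanolide-treated cells, a log2 fold change of 0.62 (adjusted p = 0.0796 in edgeR). Both were higher in every sedanolide library than in any control.

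In assembly, storage and lipolysis, 3 of 19 tested further genes were higher at an unadjusted p under 0.05 (15.8%, against 5.34% of all genes). At the same threshold 5 were lower (26.3%, against 6.57%). GPAT3, a glycerol phosphate acyltransferase, gave 0.73, HILPDA, an inhibitor of the lipase encoded by PNPLA2, gave 0.63, and CIDEC, a protein of lipid droplet fusion, gave 0.58. PLIN4, a droplet coat protein, gave -1.01 at low levels of 2.88 to 4.24 CPM in control and 1.45 to 2.10 in sedanolide-treated cells. PLIN4 shares 17 exonic bases with HDGFL2 on the other strand, which had 2510% of its counts, and the strand setting is not given. FABP5, another fatty acid-binding protein, measured 19.4, 16.5 and 22.5 CPM in control and 40.4, 31.7 and 24.7 in sedanolide-treated cells, a log2 fold change of 0.73 (adjusted p = 0.240 in edgeR) opposite in sign to that of FABP1. Of 13 tested transcription regulators, 1 was lower at an unadjusted p under 0.05 (7.69%, against 6.57% of all genes). This was SREBF1, the gene of SREBP-1, at -0.49 (adjusted p = 0.318 in edgeR). It is named after its value was seen, because it was the only one in this fit. SREBF1 shares 556 exonic bases with RAI1 on the other strand, which had 93.7% of its counts. PPARGC1B, a transcriptional coactivator of lipid metabolism likewise named after its values were seen, measured 5.69, 7.12 and 3.84 CPM in control and 6.56, 7.76 and 12.5 in sedanolide-treated cells. Its groups overlapped, with a log2 fold change of 0.68 (95% interval -0.05 to 1.42, adjusted p = 0.445 in edgeR), whereas within the sides the difference was 0.96 and 0.88.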

How the data were processed

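RNA-seq was analyzed in 3 control and 3 sedanolide libraries. Per the submitters' processing notes, the tools of the authors were FastQC, Trimmomatic, STAR and RSEM, on build GRCh38. Their versions and, for RSEM, the annotation release and strand setting are not given in the sources used here. One deposited table holds expected counts per gene from RSEM, without normalization. The other table deposited by the authors holds log2(TPM + 1) for 11006 genes, and its filter is not given. Expected counts were rounded to whole numbers, since 7.90% to 8.59% of the values were not whole, and tested in R 4.3.3 with edgeR 4.0.16 (filterByExpr, TMM, robust quasi-likelihood, treatment as the only term, Benjamini-Hochberg over 14102 genes). CPM are normalized by TMM, and TPM are the authors' values with the 1 taken off. TPM were used for levels between genes. The study's own test was DESeq2, run here as an alternative in version 1.42.0. Limma 3.58.1 was used for the TPM table.

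The total of 16420258 to 26714853 counts per library limits low genes, and a floor of 3 counts, which covers counting error only, corresponds to 0.116 to 0.182 CPM. The test was run on simulated data with known fold changes. Alternatives were other size factors, no filter, pseudocounts of 1 and 0.1, a mean TPM of at least 1, the replicate number or the side of component 1 as a term, and each library left out. Gene positions are from GENCODE 44, in which 61369 of 61541 identifiers were found. Values in every library are given for the 12 members with the smallest p, the called member and the member with the highest mean log2(TPM + 1) of each role, and for ACACA and HADHB, added after their values were seen because their groups did not overlap. Of the further pathway genes, the 8 with the smallest p were to be named, and items withheld from this text are not reported here. The members, the gene lists and the side of component 1 were chosen with earlier results of these data known. The libraries differed by more than sampling noise, so none was a duplicate. All 6 libraries entered the reported fit.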

Additional observations from a re-analysis of the deposited data

How the results depend on the processing

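With 3 libraries per group, 19 of the 40 tested members have 95% intervals that reach past a fold change of 1.5, and counts down to 47 per library limit the lowest of them. The number of members past both thresholds was 1 in the edgeR fit used above and 2 in DESeq2. It was 0 in each of the 3 analyses of the log2(TPM + 1) table, and 0 with the replicate number as a block. Leaving out 1 library gave 0 to 1. The number at an unadjusted p under 0.05 was 8 in the edgeR fit used above and 3 with the replicate block. It was 4 to 13 when 1 library was left out, with 4 without control 1 or sedanolide 2 and 13 without sedanolide 3. Over all genes, the edgeR fit used above called 94 and DESeq2, as run here, 326. EdgeR called 0 with the replicate block (770 at an unadjusted p under 0.05), without control 1 (1065) and without sedanolide 2 (887). None of these counts is the paper's own. Deviations of same-numbered libraries from their group means correlated at -0.133, -0.295 and -0.730, and no library correlated best with its own number. These deviations also carry the split between the sides of component 1, so they cannot decide whether the replicate numbers pair the libraries. The difference between synthesis and oxidation stayed within 1 SD of its reported value in 15 alternatives, from -0.15 to 0.05 when 1 library was left out, and it was positive without sedanolide 1. The sign turned in 6 named members, none of which was called. Of these ACACB, at -0.54 in the edgeR fit used above, had the largest difference. In the TPM table ACACB gave 0.067 (0.092 with a pseudocount of 0.1), FASN -0.11, ETFB -0.057 and HADHA -0.012. With the side as a term CPT1A gave 0.050 and ETFB -0.085, and with library size only FASN gave -0.012. When 1 library was left out CPT1A ranged from -0.099 to 0.039, FASN from -0.071 to 0.15, ETFB from -0.079 to 0.29 and ACAA1 from -0.22 to 0.078. The causes were not tested. The filter at a mean TPM of 1 removed no gene, so it repeats the table as deposited.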

Other observations

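Of the 98 further pathway genes 15 were too low to be tested. Several encode well-known proteins of liver lipid metabolism. PDK4, a kinase that turns off pyruvate dehydrogenase in fasting, and INSIG1, which holds SREBP in the endoplasmic reticulum, had 0 to 2 counts each. ME1, the cytosolic malic enzyme, had 0 to 1 count, and FGF21, a hormone secreted by the liver in fasting, had 0 to 4. G0S2, an inhibitor of the lipase encoded by PNPLA2, and ACADL, the long-chain acyl-CoA dehydrogenase, had 0 counts in all 6 libraries. A count of 0 allows up to 3 counts, or 0.116 to 0.182 CPM in these libraries, and no difference between sedanolide-treated and control cells was detectable for these genes at this depth.

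MTTP, a further gene of lipid export that loads lipid onto apolipoprotein B, was named after its values were seen. It had an unadjusted p under 0.05 without passing the adjusted edgeR test. It measured 146, 160 and 152 CPM in control and 119, 123 and 119 in sedanolide-treated cells, a log2 fold change of -0.35 (adjusted p = 0.256). All sedanolide libraries lay below all controls.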
